A study of Danio rerio with 3 samples.

Results

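The wells described here are the 90 of 593 sorted zebrafish macrophage wells with the highest score for 5 genes linked to osteoclasts. The genes were ctsk (ENSDARG00000040251), ctsl.1 (ENSDARG00000003902), acp5 (ENSDARG00000019763), ocstamp (ENSDARG00000022139) and gdpd3b (ENSDARG00000006944). Each well was scaled to 10000 unique molecular identifiers (UMIs, tags that let each RNA molecule be counted once), log transformed and standardized per gene over all kept wells, and the score was the mean of the 5 genes. The wells were therefore chosen on their expression, and their levels of the 5 genes, like every comparison of these wells with the rest, are a description without a test. Some defining osteoclast genes (nfatc1, mitf, itgb3) had almost no UMIs in them and others (tnfrsf11a) were detected, as given below, so they are called high-scoring wells and the remaining 503 kept wells are called other wells.

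Whole embryos at 5 days post fertilization were dissociated, and cells positive for mpeg, a macrophage reporter, were sorted into 384-well plates for CEL-Seq2, which reads the 3′ end of barcoded transcripts. Embryos were either mutants for ptpn6, the gene of the tyrosine phosphatase Shp1, or siblings whose own genotype the labels do not divide further, and neither the lesion nor the number of embryos is given in the sources used here. This gave 4 pools: mutants of sort day 1, mutants of sort day 2, siblings of sort day 1 and siblings of sort day 2. On day 1 mutants (rows I to P) and siblings (rows A to H) shared a plate, whereas on day 2 each genotype had its own plate, so that genotype and plate cannot be told apart on that day.

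Osteoclasts are multinucleated cells of the macrophage lineage that dissolve bone. They pump acid through a vacuolar proton pump (V-ATPase) into a sealed space on the bone surface, balance the charge with chloride, and release the collagen-cutting protease cathepsin K and tartrate-resistant acid phosphatase. The same pump and a related set of proteases work inside the lysosomes of any macrophage, so genes of acid and protease pathways are shared between the cell types.

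The kept wells held at least 1000 UMIs each. The mutant plate of day 2 was the poorest, with 125 of 384 wells kept and a median of 207 UMIs over all its wells. The shared plate kept 269 wells (median 4353 UMIs) and the sibling plate of day 2 kept 199 (median 1686 UMIs). High-scoring wells had a median of 9770 UMIs (range 1457 to 21112) and other wells a median of 8822 UMIs (range 1017 to 168454). UMIs of a group of wells were summed in each pool and scaled to a common total (CPM). The summed high-scoring wells of a pool held between 126683 and 452695 UMIs, and the summed other wells between 994530 and 1732941. The targeted gene could not serve as a check of the labels: ptpn6 had 0 UMIs in the high-scoring wells of all 4 pools, and in other wells 5 and 0 UMIs in the mutant pools of days 1 and 2, against 11 and 3 UMIs in the sibling pools. The 3 plates carry the same 384 well barcodes by design, so a shared barcode does not mark a shared cell.

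Of the proteases in the score, ctsk encodes cathepsin K. Its summed level in high-scoring wells was 548 CPM in mutants of day 1, 3276 CPM in mutants of day 2, 205 CPM in siblings of day 1 and 86.2 CPM in siblings of day 2. In other wells it was 49.1 and 87.9 CPM in the mutant pools of days 1 and 2, and 26.1 and 14.4 CPM in the sibling pools. Mutants of day 2 thus stood far above the other pools, and 3 of their 14 high-scoring wells held 312.4 of 572.8 ctsk UMIs. The related protease gene ctsl.1, of the cathepsin L family, ran the other way: high-scoring wells held 2987 CPM in mutants of day 1 and only 34.3 CPM in mutants of day 2, against 4243 and 3138 CPM in siblings of days 1 and 2. A second gene of the family, ctsla, which was not in the score, had no such gap, with 739 CPM in high-scoring wells of mutants of day 2 and 482 to 1035 CPM in the other 3 pools. The shortage of ctsl.1 on the mutant plate of day 2 was not limited to high-scoring wells, since its other wells also held the least, 20.6 CPM, against 133 to 368 CPM in the other 3 pools.

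The acid phosphatase gene acp5 was at 213 and 476 CPM in high-scoring wells of mutants of days 1 and 2, and at 134 and 267 CPM in those of siblings. Other wells held 24.2 to 29.4 CPM of it in the 4 pools. The gene ocstamp, whose mouse counterpart encodes a membrane protein needed for the fusion of osteoclast precursors, was the most even of the 5, with 1299 and 1430 CPM in high-scoring mutant wells and 871 and 1221 CPM in high-scoring sibling wells. Other wells held 113 to 329 CPM of ocstamp. For gdpd3b, named for a glycerophosphodiester phosphodiesterase domain, the levels were 719 and 384 CPM in high-scoring mutant wells, 757 and 644 CPM in high-scoring sibling wells, and 7.25 to 23.1 CPM in other wells. A few wells carried much of it: in siblings of day 1, 3 of 15 wells held 93.9 of 95.9 gdpd3b UMIs.

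**Figure D1:**
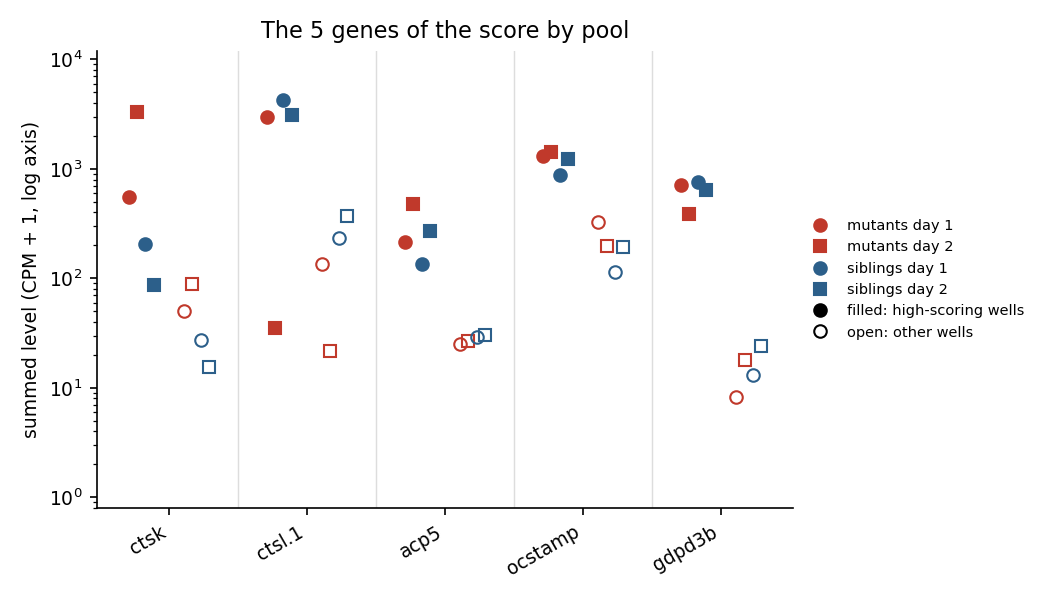
Summed level (CPM plus 1, log axis) of the 5 score genes in high-scoring wells (filled) and other wells (open), 1 point per pool, mutants in red and siblings in blue, circles for day 1 and squares for day 2. Mutants of day 2 hold the most ctsk, 3276 CPM, and the least ctsl.1, 34.3 CPM, among high-scoring wells.

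High-scoring wells held 77.6% of all ctsk UMIs in kept wells, 69.95% of ctsl.1, 64.99% of acp5, 51.2% of ocstamp and 87.8% of gdpd3b. Wells with few UMIs, in which the presence of a cell was not tested, gave the level against which other wells were read. The 559 wells with fewer than 1000 UMIs, summed, held 180 CPM of ctsk, 360 CPM of ctsl.1, 31.3 CPM of acp5, 407 CPM of ocstamp and 117 CPM of gdpd3b, at a median of 175 UMIs per well. Summed over all ranks, other wells lay near those values or below them. They were not uniform: other wells ranked 91 to 180 held 740 CPM of ocstamp and 538 CPM of ctsl.1 as means over the pools. Beyond rank 180 they held 100.7 and 112 CPM, less than the wells under 1000 UMIs. After every well was thinned to 1000 UMIs, ctsk was seen in 21.1% of high-scoring wells and 3.58% of other wells, and ctsl.1 in 61.1% and 16.7%. Without thinning, the shares were 55.6% and 22.1% for ctsk, and 85.6% and 48.7% for ctsl.1.

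No gap separated the 90 wells from the rest. The wells ranked 86 to 90 scored 0.505 to 0.547, and those ranked 91 to 95 scored 0.454 to 0.489. Of the 90 wells, 17 held a UMI of all 5 genes, 29 of 4 genes, 37 of 3 genes and 7 of 2 genes. Among other wells, 3 held all 5. Standardizing within each plate in place of over all plates kept 78 of the 90 wells, and leaving ctsk out of the score kept 77.

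The score genes were combined differently across the pools, which describes the choice of wells, since both genes named here entered the score. In mutants of day 1 all 11 wells with ctsk also held ctsl.1, as did all 12 in siblings of day 1 and all 15 in siblings of day 2. In mutants of day 2 only 2 of the 12 wells with ctsk held ctsl.1, and 10 held ctsk without ctsl.1. With or without ctsk, ctsl.1 was held by 15 of 15, 14 of 15 and 45 of 46 high-scoring wells of the first 3 pools named. In mutants of day 2 it was held by 3 of 14, so these counts follow how often ctsl.1 was seen in each pool. The further genes of these 14 wells described next were picked after their values had been seen. The gene spp1, of the bone matrix protein osteopontin, had 251 UMIs there, of which 3 wells held 215, and 0 UMIs in the high-scoring wells of the other 3 pools. Of the 12 wells with ctsk in mutants of day 2, 9 also held spp1, 10 held anxa2 and 9 held mmp9. Over all 14 wells, 10 held spp1, 11 held anxa2 and 10 held mmp9, so no link with ctsk is read from these counts.

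The gene mmp9, of a gelatin-degrading protease abundant in osteoclasts, was at 48.6 CPM in high-scoring wells of mutants of day 1 and 815 CPM in those of mutants of day 2, against 15.8 and 42 CPM in those of siblings of days 1 and 2. The kinase gene src, which mouse osteoclasts need for their ruffled border, stood at 36.4 and 240 CPM in mutants and at 0 and 13.3 CPM in siblings. The tetraspanin gene cd9b stood at 231 and 1258 CPM in mutants and at 190 and 66.3 CPM in siblings. The annexin gene anxa2 stood at 24.3 and 1534 CPM in mutants and at 0 and 8.84 CPM in siblings. Outside mutants of day 2, src and anxa2 rested on few UMIs, near the detection limit. There anxa2 was seen in 2 of 15 high-scoring wells of mutants of day 1, and in 0 of 15 and 3 of 46 of siblings. For all 4 genes mutants of day 2 were the highest of the 4 pools, and for cd9b and mmp9 mutants of day 1 stood near siblings of day 1 or day 2. Other wells of the day 2 mutant plate held less of them, 225 CPM of mmp9, 43 CPM of src, 356 CPM of cd9b, 281 CPM of anxa2 and 61 CPM of spp1, and the poor wells of that plate, under 1000 UMIs, held 199 CPM of mmp9, 88.4 CPM of src, 398 CPM of cd9b, 420 CPM of anxa2 and 199 CPM of spp1. With a single pool of this kind, no spread between replicates can be given for the pattern, and genotype and plate cannot be told apart in it.

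Genes outside the score tell how far the osteoclast name holds. Across 2184 genes with at least 50 CPM on average, 17.4% were higher in high-scoring than in other wells in all 4 pools and 14.9% were lower in all 4. Of 22 osteoclast genes outside the score at that level, 10 were higher in all 4 pools and 2 were lower, with a median log2 ratio of 0.76 against 0.05 over all genes. The ratio used throughout is that of the mean pool CPM, each with 10 CPM added. Since the wells were chosen on genes expressed in the same cells, these counts describe the wells and test nothing.

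All 4 acid secretion genes at that level were higher in high-scoring wells in each pool. The chloride antiporter gene clcn7 stood at 529 and 280 CPM in high-scoring mutant wells of days 1 and 2, and at 537 and 345 CPM in high-scoring sibling wells, against 148 to 262 CPM in other wells (ratio 1.88). Carbonic anhydrase gene ca2, which supplies the protons, stood at 377, 762, 490 and 717 CPM in the high-scoring wells of mutants of days 1 and 2 and siblings of days 1 and 2, and at 188 to 375 CPM in other wells (ratio 2.15). The bicarbonate exchanger gene slc4a2 (ENSDARG00000052330) had a ratio of 2.00, and ostm1, of the partner protein of the Clcn7 antiporter, a ratio of 1.60. In other wells ca2 came closest to the high-scoring range, with 375 CPM in siblings of day 2.

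Among genes of matrix degradation, the membrane metalloprotease gene mmp14 (ENSDARG00000008388) stood at 268 and 217 CPM in high-scoring mutant wells and at 150 and 230 CPM in high-scoring sibling wells, against 65.5 to 101 CPM in other wells, without overlap. The collagenase gene mmp13a was lower in high-scoring wells in all 4 pools (ratio 0.52), and the cathepsin B gene ctsb was higher in all 4 (1.83). Of 5 fusion and attachment genes, snx10b, of a sorting nexin, was higher in all 4 pools (1.70). Among genes of signalling and transcription, tnfrsf11a, of the receptor RANK that starts osteoclast formation, stood at 170 and 194 CPM in high-scoring mutant wells and at 182 and 221 CPM in high-scoring sibling wells, against 118 to 171 CPM in other wells. Its lowest high-scoring pool lay at the level of the highest pool of other wells, its ratio was 1.30, and after thinning it was seen in 12.2% of high-scoring and 12.5% of other wells. The transcription factor gene prdm1, whose mouse counterpart represses inhibitors of osteoclast formation, had a ratio of 1.195, and fosl2, of an AP-1 factor, was lower in all 4 pools (0.76). The gene tfeb, of a transcription factor for lysosomal genes, had the largest ratio of the osteoclast list, 2.73.

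The defining osteoclast genes nfatc1, mitf and itgb3 were close to 0, although 13 of 14 signalling and transcription genes had at least 1 UMI in high-scoring wells. The high-scoring wells held 5 UMIs of nfatc1, the master transcription factor of mouse osteoclast formation, and 0 and 2 UMIs of the genes with the symbol mitf. They held 0 and 9 UMIs of the genes with the symbol itgb3, the integrin subunit by which osteoclasts attach to bone. A gene was named only where the symbol table matched it, and dcstamp, tcirg1a, tcirg1b, csf1ra and siglec15l were not matched and are not analysed here. At this depth the wells thus held acid and protease genes of the osteoclast list and almost no UMIs of nfatc1, mitf or itgb3.

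Genes of the lysosome and its proton pump were mostly higher in high-scoring wells. Of 21 lysosome genes at 50 CPM or more, 18 were higher in all 4 pools and 0 lower, with a median log2 ratio of 0.92. The summed lysosome genes made up 1.68% and 1.62% of UMIs in high-scoring mutant wells of days 1 and 2, and 1.5% and 1.32% in those of siblings, against 0.867% and 1.04% in other mutant wells and 0.759% and 0.847% in other sibling wells. The 2 ranges did not overlap. Of 17 V-ATPase subunit genes, 16 were higher in all 4 pools and 0 lower, with a median log2 ratio of 0.74. The ring subunit gene atp6v0c (ENSDARG00000057853) stood at 4542 and 4762 CPM in high-scoring mutant wells and 4710 and 4436 CPM in high-scoring sibling wells, against 2377 to 3389 CPM in other wells.

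Proteases led the lysosome genes. The carboxypeptidase gene ctsz stood at 1218 and 779 CPM in high-scoring mutant wells and at 1171 and 907 CPM in high-scoring sibling wells, against 284 to 341 CPM in other wells (ratio 3.29). The asparaginyl endopeptidase gene lgmn stood at 1181 and 802 CPM in high-scoring mutant wells and at 893 and 969 CPM in high-scoring sibling wells, against 247 to 398 CPM in other wells (ratio 3.09). The aspartyl protease gene ctsd had 966 ± 156 CPM in high-scoring wells and 347 ± 29.7 CPM in other wells (SD, n = 4 pools each). For the 3 genes the lowest high-scoring pool lay above the highest pool of other wells. Their levels in wells under 1000 UMIs, 321 CPM for ctsz and 493 CPM for lgmn, were near or above those of other wells.

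**Figure D2:**
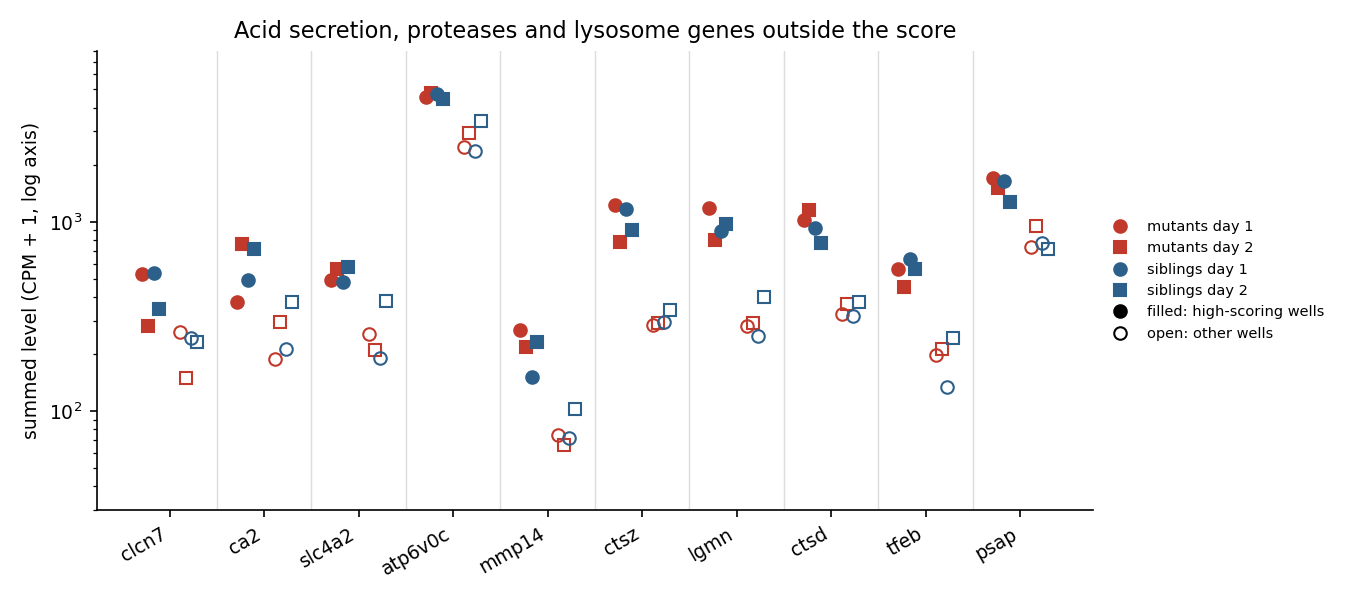
Summed level (CPM plus 1, log axis) of 10 genes outside the score in high-scoring wells (filled) and other wells (open), 1 point per pool, mutants in red and siblings in blue, circles for day 1 and squares for day 2. For ctsz, lgmn, ctsd, tfeb, mmp14 and atp6v0c the 4 high-scoring pools lie above all 4 pools of other wells. The same holds for clcn7 and ca2 by a narrow margin.

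Among all genes with at least 100 CPM in high-scoring wells, the 20 of largest ratio that were higher in every pool were of several kinds. The largest ratio, 3.68, belonged to rin1a, of an activator of the endosomal GTPase Rab5, at 487 and 481 CPM in high-scoring mutant wells and 585 and 290 CPM in high-scoring sibling wells. The 20 also held the lysosomal hydrolase genes scpep1 (2.73), dpp7 (2.66) and rnaset2 (2.72), and the lipid enzyme genes pla2g7 (3.09) and smpd2a (3.03). Amino acid transporter genes slc43a2 (ENSDARG00000061120, 3.38) and slc38a7 (2.83) stood among them, as did the semaphorin gene sema4ab (3.2), the transcription factor gene sox9 (ENSDARG00000043923, 3.05), the receptor gene tnfrsf18 (3.04) and the galectin gene lgals9l1 (2.74). With ctsz, lgmn, ctsd and tfeb these were 16 genes, and the remaining 4 were si:ch211-26b3.4 and 3 IDs without a symbol.

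Mean lysosome levels stepped down with the score, with no break at the 90 wells. By rank of score, lysosome genes made up 1.71% of UMIs in wells 1 to 30, 1.52% in wells 31 to 60, 1.40% in wells 61 to 90, 1.26% in wells 91 to 180 and 0.804% in the other wells beyond rank 180, as means over the 4 pools. Some pools stand on few wells, 3 of siblings of day 1 at rank 1 to 30 and 2 of mutants of day 2 at rank 61 to 90. The pools ranged from 1.02% to 1.92% at rank 61 to 90 and from 1.08% to 1.58% at rank 91 to 180, so these neighbouring ranks overlapped. V-ATPase subunits gave 1.36%, 1.24%, 1.19%, 1.01% and 0.714% in the same order. The gene tfeb showed the same order, with 796, 484, 408, 344 and 169 CPM. Macrophage genes were flatter, with 0.780%, 0.95%, 0.785%, 0.775% and 0.637%. Osteoclast genes outside the score gave 0.830%, 0.639%, 0.661%, 0.666% and 0.445%. By these means, wells ranked 31 to 60 and 61 to 90 held no more of them than other wells ranked 91 to 180. The pools ranged from 0.604% to 0.687% at rank 31 to 60 and from 0.585% to 0.760% at rank 61 to 90. At rank 91 to 180 they ranged more widely, from 0.469% to 0.942%, so the means do not order these ranks.

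**Figure D3:**
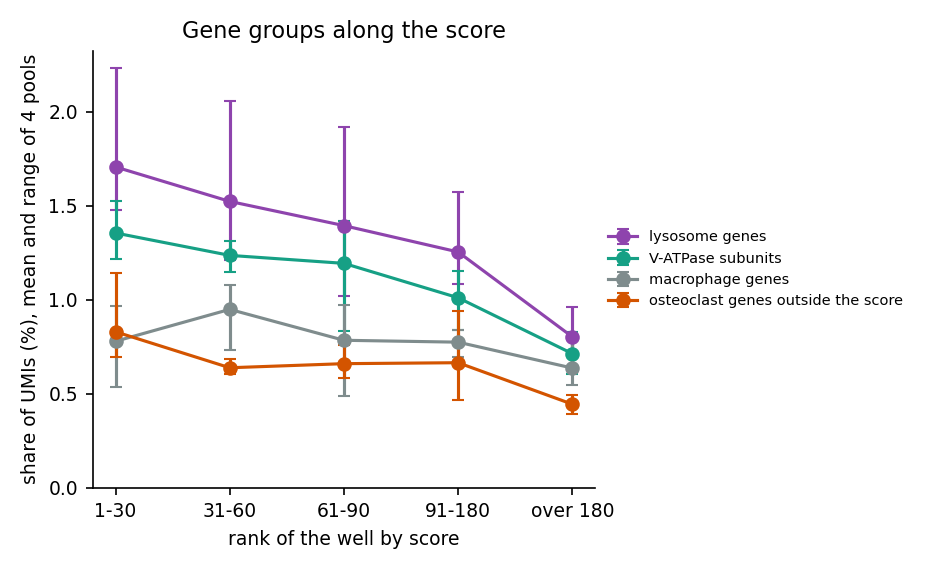
Share of UMIs (%) of 4 gene groups, score genes left out, by rank of the wells' score; points are means and bars the lowest and highest of 4 pools. Lysosome genes step down from 1.71% at rank 1 to 30 to 0.804% beyond rank 180, and 1.26% remains just below the 90 wells.

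Macrophage and related lists had no uniform direction in high-scoring wells. The macrophage gene mpeg1 (ENSDARG00000055290), of the perforin-like protein behind the reporter, stood at 432 and 189 CPM in high-scoring mutant wells and 435 and 232 CPM in high-scoring sibling wells, against 124 to 184 CPM in other wells. Of 18 macrophage genes, 4 were higher in all 4 pools and 2 lower, counts near the 17.4% and 14.9% seen over all genes. Their median log2 ratio was 0.48, against 0.05 over all genes. The summed share of macrophage genes was higher in high-scoring than in other wells in 3 pools. It was 0.958% against 0.576% in mutants of day 1, 0.875% against 0.626% in siblings of day 1 and 0.815% against 0.629% in siblings of day 2. In mutants of day 2 it was lower, 0.700% in high-scoring and 0.822% in other wells. The chemerin receptor gene cmklr1 was higher in 3 pools (ratio 1.68), but in mutants of day 2 it stood at 435 CPM in high-scoring and 613 CPM in other wells. The gene lcp1, of a leukocyte actin bundler, was lower in all 4 pools (ratio 0.82). Of 6 microglia genes, 3 were higher in all 4 pools and 1 lower, with a median log2 ratio of 0.43. The higher ones included the amino acid transporter gene slc7a7 (1.40), and the lower one was the apolipoprotein gene apoc1, at 468 and 464 CPM in high-scoring mutant wells and 941 and 982 CPM in high-scoring sibling wells, against 895 to 2090 CPM in other wells. Of 3 genes of the metaphocyte list (epidermal cells that resemble macrophages), the granulin gene grna.2 (0.16) and icn (0.20) were lower in all 4 pools and tspan36 (1.52) was higher. That list summed to 0.186% to 0.299% of UMIs in high-scoring wells and 0.197% to 0.367% in other wells, ranges that overlapped. Surfactant protein gene sftpba was at 8.84 to 28.6 CPM in high-scoring wells and at 119.1 to 325 CPM in other wells.

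Muscle genes summed to 0.0160% to 0.172% of UMIs in the high-scoring wells of the 4 pools and to 0.0210% to 1.42% in other wells, highest in other wells of mutants of day 1. Neutrophil genes summed to 0.0806% to 0.123% in high-scoring wells and 0.0879% to 0.231% in other wells, and erythroid genes to at most 0.00158% and 0.00298%. The mesenchyme and osteoblast list was at 0.000789% to 0.0113% in the high-scoring wells of 3 pools and at 0.151% in those of mutants of day 2, where spp1 accounted for 251 UMIs. Ribosomal protein genes were lower, with 45 of 67 lower in all 4 pools, 0 higher and a median log2 ratio of -0.18. They made up 9.74% to 14.2% of UMIs in high-scoring wells and 11.4% to 14.6% in other wells, ranges that overlapped.

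The share of kept wells that scored high was compared between genotypes. It was 10.9% in mutants of day 1 (15 of 138 wells, exact Clopper-Pearson 95% interval 6.21% to 17.3%) and 11.2% in mutants of day 2 (14 of 125, 6.26% to 18.1%). In siblings it was 11.5% on day 1 (15 of 131, 6.55% to 18.2%) and 23.1% on day 2 (46 of 199, 17.4% to 29.6%). The intervals cover counting error only. Siblings of day 2 stood alone above the other pools. The mean was 11% ± 0.234 in mutants and 17.3% ± 8.25 in siblings (SD, n = 2 pools each), a difference of -6.25 percentage points. The two-sided exact permutation p was 0.333, the smallest that 2 pools against 2 can give, so the design cannot reach 0.05. On the shared plate of day 1 the difference was -0.581 points, and on day 2, where genotype and plate cannot be told apart, it was -11.9 points. Without siblings of day 2 the difference was -0.416 points, and without siblings of day 1 it was -12.1 points. A score gene differed across the whole day 2 plates: ctsl.1 was held by 123 of 153 other wells of siblings and 12 of 111 of mutants. With scores standardized within plate, 17.1% of siblings and 14.4% of mutants of day 2 scored high, a difference of -1.71 points over the 4 pools. Because each genotype had its own plate on day 2, this setting also takes out any genotype difference in mean level. It therefore cannot tell genotype and plate apart, and nothing is concluded from the smaller difference. A score without ctsl.1 was not tested.

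**Figure D4:**
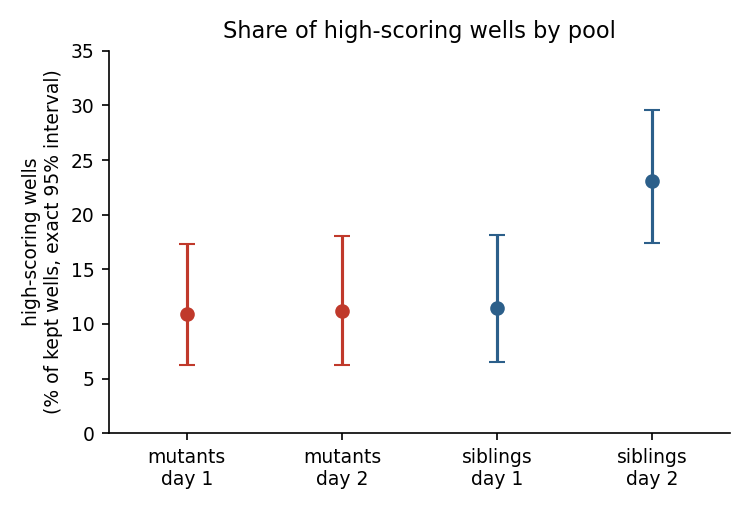
Share of kept wells that scored high (%), by pool, with exact 95% binomial intervals; mutants in red, siblings in blue. The mutant pools and siblings of day 1 lie between 10.9% and 11.5%, and siblings of day 2 at 23.1%.

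Within the high-scoring wells, mutants were then compared with siblings over the 4 pools with edgeR's quasi-likelihood test. At an adjusted p under 0.05, mutants were higher for 0 and lower for 0 of 2039 genes tested (0.0% in each direction). At an unadjusted p under 0.05 there were 90 genes, and the lowest adjusted p was 0.103. With sort day as a block in the same test, the lowest adjusted p was 0.915. DESeq2's Wald test called 2 genes higher, hsp70l and ctsk, of which ctsk is a score gene, and 0 lower. Calls appeared when a pool was left out: 48 higher and 66 lower without mutants of day 1, 7 and 1 without mutants of day 2, 20 and 5 without siblings of day 1, and 14 and 1 without siblings of day 2. In each of those fits a lone pool was assumed to vary like the other genotype's pair. The prior degrees of freedom in those fits were infinite, so their spread came from all genes together and not from a gene's own pools. In the main fit they were 8.85, so a gene's spread was partly borrowed from all genes. What its p-values measure is spread between pools only, which may be technical.

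No gene met the threshold, so the values that follow, for genes of smallest p with the same sign on both days, are given without a call. Both mutant pools lay above both sibling pools for 15.2% of the genes tested and below them for 14.6%. The annexin gene anxa5b had 22 and 133 UMIs in high-scoring wells of mutants of days 1 and 2, and 1 and 0 UMIs in those of siblings (log2 fold change 7.50, SE 1.23, adjusted p 0.103). It lay at 160 and 241 CPM in other mutant wells and at 68.4 and 13.8 CPM in other sibling wells. The invariant chain gene cd74a, of antigen presentation, stood at 1048 and 892 CPM in high-scoring mutant wells and 126 and 234 CPM in high-scoring sibling wells (2.40, SE 0.48, adjusted p 0.163). The split was seen across the plates: cd74a was at 470 and 1260 CPM in other mutant wells and 198 and 156 CPM in other sibling wells, and wells under 1000 UMIs held 763 and 1237 CPM in mutants and 139.6 and 86 CPM in siblings. The uncharacterized gene si:dkey-6n3.3 stood at 530 and 11471 CPM in high-scoring mutant wells and 31.6 and 79.6 CPM in high-scoring sibling wells. It was also plentiful elsewhere on the mutant plate of day 2, with 4623 CPM in other wells and 5484 CPM in wells under 1000 UMIs.

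The heat shock chaperone gene hsp70l stood at 1467 and 1226 CPM in high-scoring mutant wells and at 94.7 and 239 CPM in high-scoring sibling wells (2.96, SE 0.51, adjusted p 0.103). Few wells carried it: 3 of 15 wells held 241 of 242 UMIs in mutants of day 1, and 3 of 14 held 204 of 214 in mutants of day 2. When wells were chosen by the score without ctsk its log2 fold change was -0.44. Other heat shock genes among the 12 of smallest p were hspa2 (3.18) and hspb1 (2.90), also held mostly by 3 wells in each mutant pool. The other 6 genes of smallest p on this side, si:dkey-119g10.4, scinlb, gpc1b, txnb, glb1l and tmem176l.2, had log2 fold changes between 2.46 and 4.80.

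In the other direction, the chemokine gene ccl34b.1 stood at 553 and 764 CPM in high-scoring mutant wells and at 1768 and 2484 CPM in high-scoring sibling wells (log2 fold change -1.70, SE 0.39, adjusted p 0.225). It was also at 474 and 1093 CPM in other mutant wells and 932 and 1788 CPM in other sibling wells. The itaconate synthase gene acod1 stood at 3075 and 2059 CPM in high-scoring mutant wells and 4900 and 5622 CPM in high-scoring sibling wells (-1.02). The scavenger receptor gene stab1 gave -2.30 and apoc1 gave -1.04. The other 8 genes of smallest p on this side, il11b, c7b, ENSDARG00000079938, anxa3b, prkcq, pglyrp5, inhba (ENSDARG00000012671) and galnt7, had log2 fold changes between -3.44 and -1.36.

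**Figure D5:**
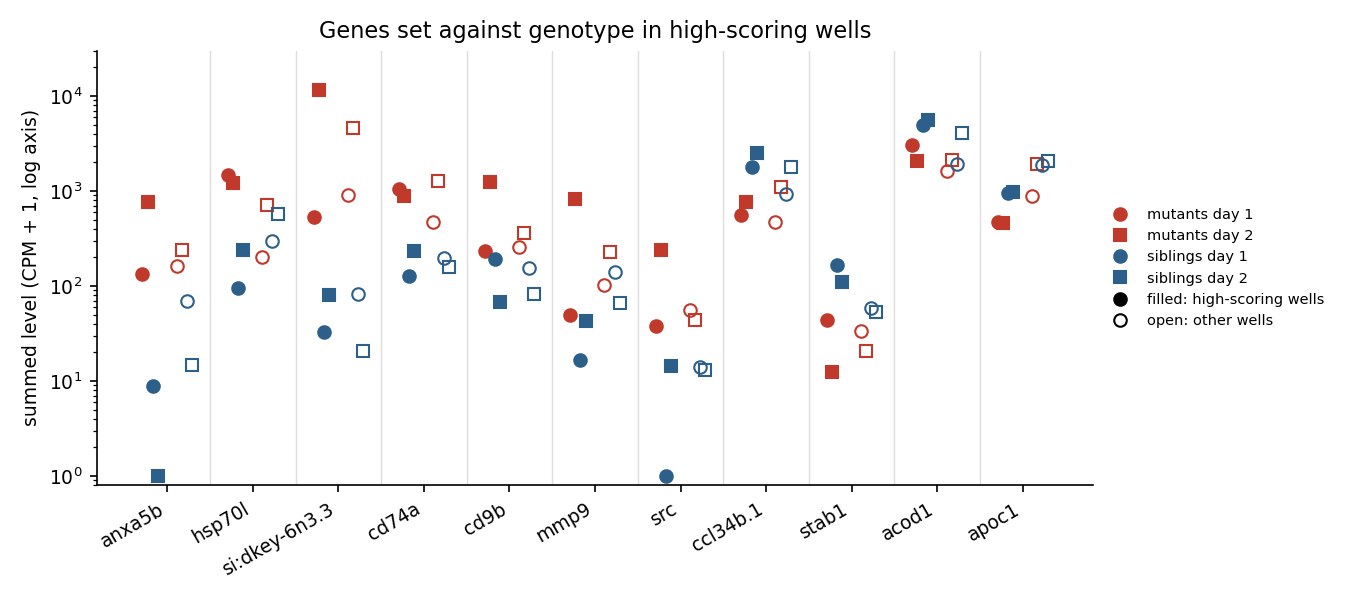
Summed level (CPM plus 1, log axis) of 11 genes in high-scoring wells (filled) and other wells (open), 1 point per pool, mutants in red and siblings in blue, circles for day 1 and squares for day 2. The genes were picked on their values in these same pools. For most of the genes shown, anxa5b and ccl34b.1 among them, the filled mutant and sibling points do not overlap. Over all genes tested, 15.2% lay higher in both mutant pools than in both sibling pools and 14.6% lower. Among the filled points, those of anxa5b, si:dkey-6n3.3, cd9b, mmp9 and src are highest in mutants of day 2.

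Gene groups were read against the shares over all genes tested: 15.2% higher in both mutant pools than in both sibling pools, and 14.6% lower. Of 50 nuclear genes of oxidative phosphorylation tested, 19 lay higher in both mutant pools than in both sibling pools and 0 lower, with a median log2 fold change of 0.57 in high-scoring wells and 0.11 in other wells. Their summed share was 0.913% and 1.47% in high-scoring mutant wells and 0.877% and 0.788% in high-scoring sibling wells, so mutants of day 1 differed little from siblings of day 1. Of 7 inflammatory genes, 4 lay lower in both mutant pools and 0 higher (median -0.50, and -0.34 in other wells). Of 6 microglia genes, 0 lay higher and 3 lower, and of 68 ribosomal protein genes 1 and 11. Of 20 osteoclast genes outside the score, 4 lay higher and 1 lower. Of 21 lysosome genes the counts were 6 and 2, and of 17 V-ATPase genes 4 and 2. The medians of those 3 groups were 0.07, 0.16 and 0.09, and 0 genes of any group passed the test.

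Whether the genotype difference in high-scoring wells was unlike that in other wells was tested with edgeR's interaction term over 8 sums. At an adjusted p under 0.05, 7 of 6909 genes had a positive interaction (0.101%) and 14 a negative one (0.203%). The chaperone gene hsp70l gave an interaction of 3.16 (SE 0.47, adjusted p 9.7e-08) and anxa5b 4.64 (SE 0.97, adjusted p 0.00123). In this fit the prior degrees of freedom were infinite, so the spread came from all genes together. These p-values therefore do not measure a gene's own spread between sums. The gene anxa5b was named for its genotype value, not by the rule for the interaction, and had almost no UMIs in high-scoring sibling wells. The hsp70l call depended on which wells were chosen: with 120 wells the interaction was 1.04 (adjusted p 0.978), and with the score without ctsk it was -1.03. The muscle genes myhz1.1 (-5.29), ttn (ENSDARG00000000563, -6.0), ttn (ENSDARG00000028213, -4.14), pvalb1 (-2.82) and myl11 (ENSDARG00000053254, -3.11) had negative values. Other wells of mutants of day 1 held 2651 CPM of pvalb1, against 51.1 to 253 CPM in other wells of the other pools. Without mutants of day 1 none of the 5 muscle calls held, with -0.59 for pvalb1, -0.88 for myl11 and -2.17 for ttn (ENSDARG00000028213), and -6.07 and -6.68 for myhz1.1 and ttn (ENSDARG00000000563). Without siblings of day 1 only the pvalb1 call held. Leaving out the deepest 2% of wells also ended all 5, with -0.40 for pvalb1 and -1.94 for myhz1.1, and gave 2 positive and 1 negative gene in all. The genotype of a day 1 well rests on well numbers read row by row: read column by column, the interaction was -0.57 for hsp70l and 2.51 for myhz1.1, with signs turned round. Without mutants of day 1 the counts were 20 and 14, without mutants of day 2 they were 10 and 18, without siblings of day 1 they were 4 and 6, and without siblings of day 2 they were 3 and 10.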

How the data were processed

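The authors deposited expected counts, estimates of molecules in each well. From the values, these are UMI counts corrected for collisions among 4096 possible tags: inverted, 100% were whole within 0.0051. BWA and the build Zv9 are named in the submitters' processing notes without a version; how reads were assigned to genes is not stated there. The 88 spike-in IDs were kept apart. Symbols, printed in lower case, came from a table that matched 17027 of 21915 IDs (75.9% of UMIs); list genes not found were matched without their paralogue letter or number. Genes with near-identical copies, such as si:dkey, ccl34b, mfap4 and heat shock genes, are uncertain, since reads could have been split.

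Columns carry well numbers, read row by row from A1; the 8 corner wells held 0.0591, 0.799 and 0.0890 of the plate median on the shared, mutant and sibling plates. Reading column by column was an alternative. Wells with at least 1000 UMIs were kept. No doublet caller was run on the sorted wells; leaving out the deepest 2% of wells was an alternative. UMIs were summed per genotype and sort day and rounded to whole numbers for the tests. The pool is the unit of each test. edgeR 4.0.16 (R 4.3.3) fitted genotype alone, or pool, membership and their interaction, with TMM scaling, filterByExpr and p-values adjusted by Benjamini-Hochberg (threshold 0.05); DESeq2 1.42.0 was an alternative. The fits were also run on simulated sums with known changes and no sort day or plate effect. That setting is simpler than these data, so it does not give their error rate here. Python 3.11.15, pandas 2.3.3 and scipy 1.17.1 did the rest. The labels give a shared sort day, so sort day pairs the pools, but the main genotype fit left this pairing out. With sort day as a block, edgeR again called 0 genes, and its lowest adjusted p was 0.915.

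The wells and the 28 gene lists were chosen with earlier results of these data known. Genes were named by rule: the score genes; the osteoclast list; list genes of highest CPM; the 20 higher and 10 lower genes by ratio in every pool (pseudocount 10 CPM); up to 12 per direction for genotype, with at least 20 UMIs where the threshold was missed; and 6 for the interaction. Of the 10 lower genes, 3 are described.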

Additional observations from a re-analysis of the deposited data

Results flagged for a closer look

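The 6 interaction genes of smallest p were singled out because the genotype difference in high-scoring wells differed from that in other wells by the interaction test itself. On the log2 scale the difference was 3.16 for hsp70l, -5.29 for myhz1.1, -6.0 for ttn (ENSDARG00000000563), -4.14 for ttn (ENSDARG00000028213), -2.82 for pvalb1 and -3.11 for myl11 (ENSDARG00000053254). In high-scoring wells myhz1.1 had few UMIs, 8 and 0 in mutants of days 1 and 2, and 11 and 3 in siblings. The summed muscle list, which includes pvalb1, held more there, 283 and 28 UMIs in mutants and 199 and 169 in siblings. Without mutants of day 1 none of the 5 muscle calls held.

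Wells under 1000 UMIs, which were outside the tests as reported, held score genes above the limit of 3 UMIs that a count of 0 allows. They held 23 UMIs of ctsk, 46 of ctsl.1, 4 of acp5, 52 of ocstamp and 15 of gdpd3b. Whether these UMIs came from free RNA or from poor cells was not tested. Of the ctsk UMIs, 17 lay on the mutant plate of day 2, and of the ctsl.1 UMIs, 28 lay on the sibling plate of day 2.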

How the results depend on the processing

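The difference between the genotype means of the pool shares kept its sign under the alternatives run. It went from -12.1 to -0.416 points when a pool was left out. It was -1.55 points with 60 wells. With scores standardized within plate, which on day 2 also takes out a genotype difference in mean level, it was -1.71. Within sort days (replicate block) it was -6.25 points, with an exact p of 0.5, the smallest possible. On the shared plate of day 1 alone the sign did not hold. With 60 wells, 7.97% of mutant and 6.11% of sibling wells scored high there, and with a minimum of 2000 UMIs 11.9% and 11.6%. With sort day as a replicate block the genotype fit called 0 genes higher and 0 lower. Without a filter on low counts it called 16 higher and 6 lower, and DESeq2's Wald test 2 higher. Leaving out a pool gave 7 to 48 higher and 1 to 66 lower.

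The interaction counts, 7 higher and 14 lower, were 2 and 7 with 60 wells, 12 and 8 with numbers read column by column and 2 and 1 without the deepest 2% of wells. Higher genes numbered 4 without a filter and 2 with the score without ctsk. Leaving out a pool gave 3 to 20 higher and 6 to 18 lower.

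Signs reversed as follows. Read column by column, the interaction was -0.57 for hsp70l, 2.51 for myhz1.1, 0.47 for ttn (ENSDARG00000000563), 0.87 for ttn (ENSDARG00000028213), 1.85 for pvalb1 and 1.83 for myl11, and the genotype value of inhba was 0.72. With the score without ctsk, hsp70l gave -0.44 for genotype and -1.03 for the interaction. When a pool was left out, ttn (ENSDARG00000000563) gave -7.37 to 1.39, the highest without siblings of day 1, and without the deepest 2% of wells myl11 gave 0.066. The cause was not tested.

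Among alternatives chosen after seeing the data, the lysosome count stayed at 16 to 20 of 21 genes and V-ATPase at 16 to 17 of 17. Osteoclast genes stayed at 9 to 12 of 20 to 22. The share over all genes moved too, from 15.9% with 60 wells to 29.1% without mutants of day 2. In that last setting, which gave the 20 lysosome genes, only 3 pools had to be higher, so counts over 3 and 4 pools are not alike. Ribosomal genes lower in every pool numbered 29 with 60 wells.

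Depth limits what is seen: 14 or 15 wells stand behind 3 of the 4 pools. Genes at a few UMIs, such as nfatc1 and mitf, were near the detection limit and cannot be called absent.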
